A study of Homo sapiens with 22 samples.

Results

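The genes described here are 31 enzymes and regulators of cholesterol and fatty acid synthesis, chosen by name as genes controlled by, or controlling, the sterol regulatory element-binding proteins (SREBPs). They were followed across 5 treatment groups of xenograft tumours grown from H2110, a human lung adenocarcinoma cell line. All 31 were found by symbol among the 58735 genes of the count table, and all 31 were among the 17652 genes with enough counts to be tested. They fall into 4 branches, with 8 genes of the mevalonate pathway, 12 of the squalene and sterol pathway, 6 regulators and 5 of fatty acid synthesis.

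The series holds 22 tumours, each labelled wild type (WT) and dosed by mouth for 3 days once it had reached about 300 mm³. There were 6 tumours on Vehicle and 4 on each drug, namely RMC-7977 (10 mg/kg, an inhibitor of active RAS), RMC-4550 (30 mg/kg, an inhibitor of the phosphatase SHP2), and the MEK kinase inhibitors trametinib (0.3 mg/kg) with cobimetinib (3 mg/kg). The title names RIT1, a RAS-related GTPase. All groups share the 1 cell line, doses differ between drugs, and a difference between drugs holds only at these doses. Nothing states that the tumours came from separate animals, so p-values reflect only the spread among the samples at hand, part of which may be technical.

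Cholesterol is made from acetyl-CoA through mevalonate, isoprenoids, squalene and lanosterol, and fatty acids are made from the same precursor. SREBP2, encoded by SREBF2, chiefly drives the sterol enzymes, and SREBP1, encoded by SREBF1, chiefly the fatty acid enzymes. Both precursors are carried by SCAP to the Golgi for cleavage when sterol is low, and are held back in the endoplasmic reticulum by the INSIG proteins when sterol is high. INSIG1 is itself an SREBP target.

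The promoters of these genes are shown first, for the 2 genes that passed the test in any comparison (INSIG1 and MVD) and for SREBF2, the 1 gene whose promoter window held the classical sterol regulatory element. This choice was made after the motif search was seen. Each sequence is the 250 bases before the RefSeq transcription start (GRCh38.p14), read 5′ to 3′ on the strand of the gene. Capitals mark the sterol element TCACNCCAC, the NF-Y box CCAAT, which reads ATTGG from the other strand, and the E-box CACGTG. The INSIG1 stretch is chr7:155297628-155297877 on the plus strand, MVD is chr16:88663092-88663341 on the minus strand and SREBF2 is chr22:41832855-41833104 on the plus strand. RefSeq starts are not the gene bounds of the count table.
INSIG1: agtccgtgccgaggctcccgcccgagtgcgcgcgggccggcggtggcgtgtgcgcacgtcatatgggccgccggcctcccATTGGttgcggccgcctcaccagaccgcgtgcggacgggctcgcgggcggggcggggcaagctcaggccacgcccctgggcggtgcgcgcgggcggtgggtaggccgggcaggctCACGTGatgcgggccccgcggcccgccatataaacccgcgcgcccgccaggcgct
MVD: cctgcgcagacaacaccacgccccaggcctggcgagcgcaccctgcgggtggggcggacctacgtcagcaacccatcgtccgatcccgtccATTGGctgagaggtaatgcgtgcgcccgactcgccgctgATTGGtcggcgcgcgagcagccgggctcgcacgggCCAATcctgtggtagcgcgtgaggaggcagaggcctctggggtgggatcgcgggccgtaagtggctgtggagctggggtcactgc
SREBF2: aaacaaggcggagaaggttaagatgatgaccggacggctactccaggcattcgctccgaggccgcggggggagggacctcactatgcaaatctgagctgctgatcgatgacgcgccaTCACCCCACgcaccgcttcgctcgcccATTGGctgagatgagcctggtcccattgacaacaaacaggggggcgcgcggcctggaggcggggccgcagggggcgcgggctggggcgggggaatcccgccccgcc

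Windows of 300 bases, 250 before and 50 after the start, were searched on both strands for 27 of the 31 genes, which have 38 promoters in the RefSeq table, beside all 35116 promoters in it. ACAT2, FDFT1, SQLE and FASN had no entry. The sterol element stood in 1 of the 38 windows (2.63%), that of SREBF2, with its first base at −133, and in 1.13% of all promoters. The NF-Y box stood in 24 of 38 (63.2%), against 34.6% of all promoters, and in at least 1 promoter of 20 of the 27 genes. The SP1 box GGGCGG stood in 33 of 38 (86.8%), against 45% of all. The E-box stood in 5 of 38 (13.2%), against 7.26%, in LSS, SC5D, INSIG1 and SCAP. The MVD stretch holds 3 NF-Y boxes, INSIG1 1 NF-Y box and 1 E-box, and SREBF2 1 NF-Y box beside its sterol element. A match of letters is a description of the window and does not show binding.

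In the untreated state the pathway was well expressed. Per kilobase of the gene length given in the table, the highest mean levels under Vehicle were those of SCD (99.6 ± 53.3 CPM per kb, SD, n = 6), the desaturase that makes oleate, and of HMGCS1 (98.7 ± 52.8), which makes HMG-CoA. CPM, the usual depth-scaled count, used library sizes adjusted by edgeR's TMM factors. FDPS (78.6 ± 22.01), IDI1 (73.9 ± 48.8) and PMVK (55.7 ± 12.4) came next in this order, and SDs overlapped between neighbours. The lowest levels were those of ELOVL6 (1.04 ± 0.49 CPM per kb), a fatty acid elongase, of CYP51A1 (2.97 ± 1.40), the lanosterol demethylase, and of STARD4 (3.13 ± 1.69), a cytosolic sterol carrier. Vehicle tumours differed widely among themselves, with a ratio of highest to lowest tumour of 10.3 for FASN, 5.51 for IDI1 and 5.27 for STARD4, but 1.49 for TM7SF2 and 1.56 for ACACA. The 31 genes together took 2944 to 6268 CPM in the Vehicle tumours.

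Some libraries stood apart, which bears on every value that follows. In Trametinib replicate 4 ribosomal protein genes took 25.0% of counts (at most 9.23% elsewhere), its median correlation with the other tumours was 0.751, and summed adipocyte and muscle markers reached 29.8 and 42.9 CPM (at most 1.35 and 1.84 in the other groups). Some markers of other cells also peaked in this library, such as CDH5 (33.4 CPM, median 0.71 over all tumours), DCN (13.1, median 0) and PTPRC (5.44, median 0.13). CD14, CLDN5 and COL1A1 did not. Only 1.99% of the genes detected in Trametinib replicate 4 had 1 or 2 counts, and 5.02% in RMC-7977 replicate 3, against 13.4% or more elsewhere. Deviations from the gene means followed GC content with a rank correlation of −0.538 in Vehicle replicate 1 and −0.584 in RMC-4550 replicate 1, against 0.307 to 0.426 in the other Vehicle tumours. It was −0.484, −0.413, 0.05 and −0.10 in Trametinib replicates 1 to 4. Cobimetinib tumours ranged from −0.231 to 0.500. Trametinib replicate 4, RMC-7977 replicate 3, Vehicle replicate 1 and RMC-4550 replicate 1 are the 4 libraries that stood apart. Trametinib replicates 1 and 2 are not among the 4, although RMC-7977 replicate 3 had a similar GC correlation (−0.424). Leaving out the 4 therefore does not remove every library with such a skew. Total counts were 7761987 to 17265754. All 9 epithelial markers were tested and summed to 3048 to 5983 CPM, with keratins and EPCAM high, but the lung lineage markers NKX2-1, NAPSA and SFTPB had medians of only 2.88, 1.14 and 1.06 CPM. In bulk tumours, fewer cells of a type and less RNA per cell cannot be told apart.

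RMC-7977 was compared with Vehicle to see how these genes stood when active RAS was inhibited. INSIG1 rose, and 28 of the 31 genes had a positive log2 fold change (RMC-7977 divided by Vehicle), against 49.3% of all genes tested. The median log2 fold change was 0.36 over the 31 genes and −0.01 over all genes. Only INSIG1 passed the threshold of an adjusted p of 0.05 (edgeR quasi-likelihood test, Benjamini-Hochberg adjustment over all genes tested), 1 of 31 where 0.748% of all genes passed in either direction and 0.3% as higher. At an unadjusted p under 0.05, 6 of the 31 were higher and 0 lower, against 4.87% and 5.47% of all genes. The 3 genes with negative values were PMVK (−0.24), SCAP (−0.13) and ACLY (−0.01). Of the summed markers of other cells, only the myeloid ones did not overlap between these groups. The 8 myeloid markers, 4 of them tested, summed to 11.8 to 27.1 CPM under Vehicle and 6.96 to 10.7 CPM under RMC-7977, with TYROBP at 0 in all libraries of both groups and CD68 at 0 in those of RMC-7977. The 7 endothelial markers summed to 40.3 to 198 and 19.0 to 77.7 CPM, and the fibroblast markers to 21.1 to 305 and 91.4 to 213 CPM. Medians over all tumours were 9.28 CPM for CD14 but 0.13 for PTPRC and 0 for CD68. They were 25.4 CPM for PECAM1 but 0.71 for CDH5. The part of these markers in the result was not tested.

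INSIG1 (ENSG00000186480, chromosome 7, 155297776 to 155310235, hg38) encodes the retention protein of the SCAP and SREBP complex. It measured 38.2 CPM in the lowest, 72.5 at the median and 89.4 in the highest Vehicle tumour, and 90.1, 149, 153 and 154 CPM in the 4 RMC-7977 tumours. All 4 stood above all 6 Vehicle tumours, replicate 1 by less than 1 CPM and the other 3 by a wide margin. The groups did not overlap, as for 2.23% of all genes in this direction. INSIG1 rose by 1.02 ± 0.24 on the log2 scale (SE, edgeR adjusted p = 0.0447, n = 4 against 6). The call did not hold when 1 of Vehicle replicates 5, 6 or 7 or RMC-7977 replicates 2, 3 or 4 was left out (adjusted p 0.0644 to 0.135). INSIG2, the second retention protein, differed by 0.21 ± 0.21.

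**Figure D1:**
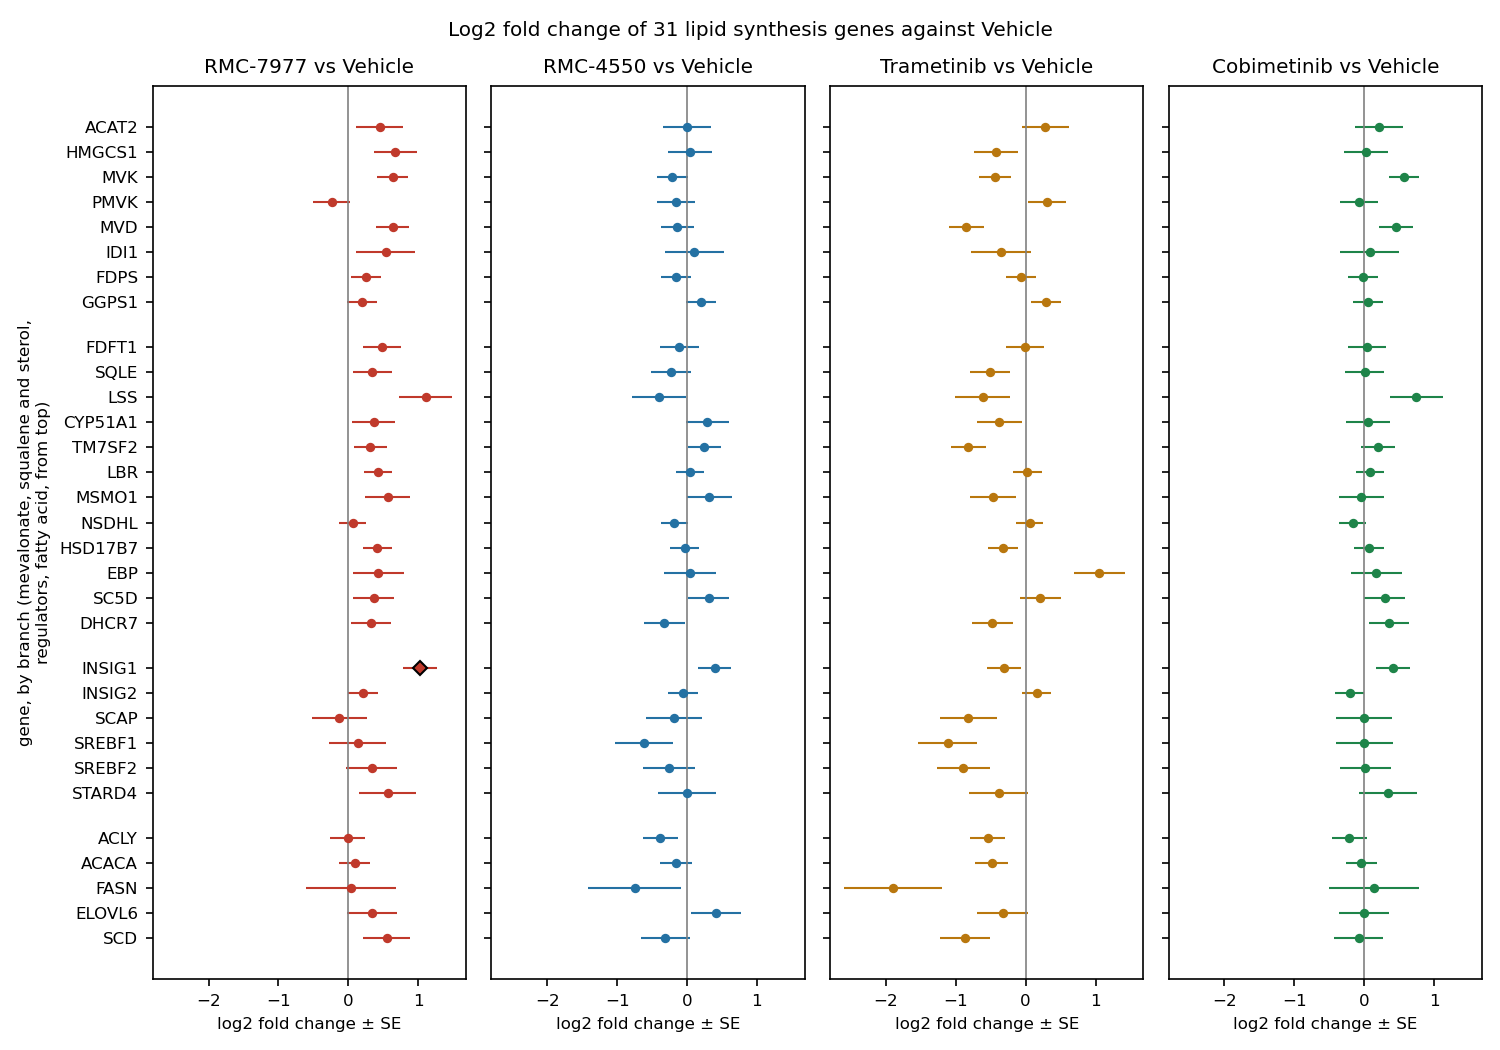
Log2 fold changes (horizontal axis) of the 31 genes, grouped by branch, for each drug against Vehicle, each point with a bar of ± 1 standard error; a black-edged diamond marks a change that passed an adjusted p of 0.05. Under RMC-7977 28 of 31 values lie above 0 and INSIG1 is the diamond, and under trametinib 23 lie below 0.

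Among the 8 mevalonate genes under RMC-7977, 7 were positive, with a median log2 fold change of 0.49, and none passed the test. MVK (chromosome 12, 109573255 to 109598117), which phosphorylates mevalonate, measured 20.8, 27.3 and 41.6 CPM (lowest, median, highest) under Vehicle and 33.7, 45.4, 45.3 and 55.5 CPM under RMC-7977. The last 3 lay above all Vehicle tumours, and the difference of 0.63 ± 0.22 had an edgeR adjusted p of 0.221. MVD (ENSG00000167508, chromosome 16, 88651935 to 88663161), which makes isopentenyl diphosphate, measured 46.8, 68.0 and 101 CPM under Vehicle and 94.8, 118, 90.0 and 144 CPM under RMC-7977. Replicates 2 and 4 lay above all Vehicle tumours, and the difference was 0.63 ± 0.24 (edgeR adjusted p = 0.285). HMGCS1 differed by 0.67 ± 0.31.

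All 12 squalene and sterol genes were positive under RMC-7977, with a median of 0.39, and again none passed. LSS (chromosome 21, 46188141 to 46228824), the cyclase that makes lanosterol, had the greatest difference of the 31, 1.10 ± 0.38 (edgeR adjusted p = 0.215). Its levels were 49.2, 69.5 and 146 CPM (lowest, median, highest) under Vehicle and 138, 165, 120 and 240 CPM under RMC-7977. Vehicle replicate 3 was above 2 of the RMC-7977 tumours, so the groups overlapped. DHCR7 (chromosome 11, 71428193 to 71452868), the last reductase before cholesterol, measured 115, 158 and 307 CPM under Vehicle and 144, 243, 183 and 311 CPM under RMC-7977, a difference of 0.32 ± 0.29. LBR, a sterol reductase that also anchors the nuclear lamina, differed by 0.42 ± 0.20. Without the 4 libraries that stood apart, LSS (1.11, adjusted p = 0.0319), LBR (0.47, adjusted p = 0.0305) and INSIG1 (1.01, adjusted p = 0.0215) passed the edgeR test, where 6.38% of all genes did.

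The mean log2 CPM of the sterol branch, a level averaged over its 12 genes, was 5.92 ± 0.40 (SD, n = 6) under Vehicle and 6.39 ± 0.29 (n = 4) under RMC-7977, with 3 of the 4 tumours above all Vehicle tumours. For the mevalonate branch the levels were 6.67 ± 0.48 and 7.11 ± 0.31, with 1 of 4 above. The regulators stood at 6.00 ± 0.27 and 6.39 ± 0.26, with 2 of 4 above, and the fatty acid genes at 7.00 ± 0.38 and 7.22 ± 0.31, with 0 of 4 above. The difference of means was larger than the SD of the Vehicle tumours for the sterol genes and the regulators, and smaller for the mevalonate and fatty acid genes. Whether branches differed from each other was not tested.

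**Figure D2:**
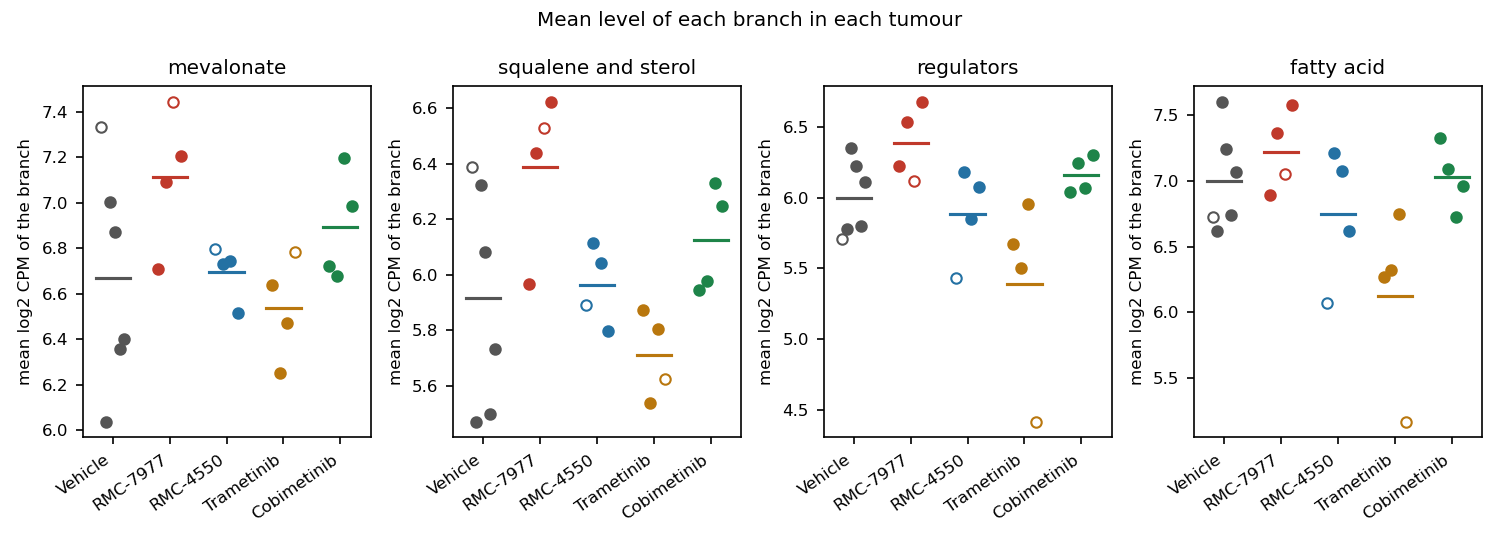
Mean log2 CPM (vertical axis) of the genes of each branch in every tumour, by treatment group, with 1 point per tumour and a bar at the group mean; open points are the 4 libraries that stood apart. In the sterol branch 3 of 4 RMC-7977 tumours lie above all Vehicle tumours, and in the fatty acid branch and among the regulators 3 of 4 trametinib tumours lie below all Vehicle tumours.

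No fatty acid gene and neither SREBP gene passed under RMC-7977. SCD (chromosome 10, 100347124 to 100364834) measured 257, 511 and 1012 CPM (lowest, median, highest) under Vehicle and 453, 796, 837 and 1032 CPM under RMC-7977, a difference of 0.55 ± 0.34 (edgeR adjusted p = 0.655) with overlapping groups. FASN, fatty acid synthase, differed by 0.04 ± 0.65, with a 95% confidence interval of −1.30 to 1.38. SREBF1 differed by 0.13 ± 0.41 (interval −0.71 to 0.98) and SREBF2 by 0.33 ± 0.36 (interval −0.42 to 1.09). Changes of more than 2-fold in either direction therefore lie inside the intervals of FASN and, for a rise, of SREBF2.

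RMC-4550 was compared with Vehicle in the same way, for inhibition of SHP2 upstream of RAS. None of the 31 genes passed by edgeR, where 0.0283% of all genes did, nor by DESeq2, and at an unadjusted p under 0.05 the count was 0 in either direction, against 2.82% of all genes higher and 1.42% lower. The signs were mixed, 11 positive and 20 negative beside 49.3% positive over all genes, with a median of −0.11. INSIG1 measured 90.3, 105, 78.4 and 79.5 CPM under RMC-4550. Replicate 1 lay just above the highest Vehicle tumour (89.4 CPM), replicate 2 lay further above it, and the other 2 lay inside the Vehicle range. The difference was 0.39 ± 0.24 (interval −0.10 to 0.89). ACLY (chromosome 17, 41866908 to 41930542), which makes cytosolic acetyl-CoA, measured 169, 219 and 274 CPM (lowest, median, highest) under Vehicle and 98.7, 238, 183 and 150 CPM under RMC-4550, a difference of −0.38 ± 0.25. Here replicates 1 and 4 lay below all Vehicle tumours. Replicate 1, a library that stood apart, had the lowest level of the group for MVD (41.5 CPM), LSS (30.2 CPM), DHCR7 (75.8 CPM), SREBF1 (43.1 CPM) and FASN (36.6 CPM). It also had the highest for ACAT2 (138 CPM), IDI1 (537 CPM) and MSMO1 (235 CPM). Without Vehicle replicate 1 the median turned to 0.07.

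Trametinib was compared with Vehicle as the first of the MEK inhibitors. None of the 31 genes passed the edgeR test, where 0% of all genes passed. DESeq2 called 1, MVD, where it called 2.15% of all genes. The lean was downward, with 23 negative and 8 positive values (49.6% positive over all genes) and a median log2 fold change of −0.39 (all genes −0.01). At an unadjusted p under 0.05, 8 of 31 genes were lower and 1 higher, against 7.17% and 11.7% of all genes. The median was −0.21 without Vehicle replicate 1 and −0.20 without the 4 libraries that stood apart. In that last setting MVD, TM7SF2, SCAP, SREBF1, SREBF2 and FASN passed as lower, 6 of 31 where 15.1% of all genes passed. All 6 lie above 55% GC. This setting leaves out Vehicle replicate 1 (GC rank correlation −0.538), so the Vehicle tumours kept stand at 0.307 to 0.426. It keeps Trametinib replicates 1 and 2 (−0.484 and −0.413). The part of GC content in these calls was not tested. Without Trametinib replicate 3, 5 genes passed (MVD, TM7SF2, SREBF1 and FASN as lower, EBP as higher), where 7.84% of all genes did, and without replicate 2 EBP alone passed, where 3.44% did.

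All 5 fatty acid genes were negative under trametinib, with a median of −0.54, and 4 of them had an unadjusted p under 0.05. FASN (chromosome 17, 82078333 to 82098332) measured 61.2, 320 and 633 CPM (lowest, median, highest) under Vehicle and 65.2, 80.4, 206 and 10.9 CPM under trametinib. Only replicate 4 lay below all Vehicle tumours, since Vehicle replicate 1 held the 61.2 CPM, and the other 5 Vehicle tumours were above all 4 trametinib tumours. The difference was −1.90 ± 0.70 (edgeR adjusted p = 0.172). SCD measured 316, 232, 420 and 204 CPM under trametinib, a difference of −0.87 ± 0.35 (edgeR adjusted p = 0.209), with 2 of 4 below all Vehicle tumours. ACLY measured 141, 150, 209 and 100 CPM, with 3 of 4 below all Vehicle tumours and a difference of −0.54 ± 0.25.

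Among the regulators SREBF1 (chromosome 17, 17810399 to 17837002) measured 58.0, 197 and 247 CPM (lowest, median, highest) under Vehicle and 71.6, 71.8, 154 and 37.0 CPM under trametinib. As for FASN, Vehicle replicate 1 was the low one, the other 5 Vehicle tumours lay above all 4 trametinib tumours, and the difference was −1.12 ± 0.43 (edgeR adjusted p = 0.181). SREBF2 differed by −0.89 ± 0.38 and SCAP, the escort of both SREBPs, by −0.82 ± 0.41. INSIG1 measured 66.4, 50.8, 64.6 and 35.04 CPM under trametinib, mostly inside the Vehicle range, a difference of −0.31 ± 0.24.

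In the mevalonate and sterol branches the differences were uneven. MVD measured 39.7, 36.0, 60.1 and 24.2 CPM under trametinib, with all but replicate 3 below every Vehicle tumour, and differed by −0.85 ± 0.25 (edgeR adjusted p = 0.105). TM7SF2 (chromosome 11, 65111845 to 65116384), a sterol reductase, measured 11.5, 14.4 and 17.1 CPM (lowest, median, highest) under Vehicle and 7.23, 8.07, 11.5 and 5.60 CPM under trametinib. It was the 1 gene of the 31 whose 4 trametinib tumours lay below all Vehicle tumours, as for 0.629% of all genes, and replicate 3 did so by a very small margin. Its difference was −0.82 ± 0.25 (edgeR adjusted p = 0.11). EBP, the sterol isomerase, went the other way at 1.05 ± 0.37, which rested on 1 library. It measured 68.7, 57.5, 66.3 and 371 CPM in the trametinib tumours, the 371 CPM in replicate 4, and without that library the difference was −0.11.

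**Figure D3:**
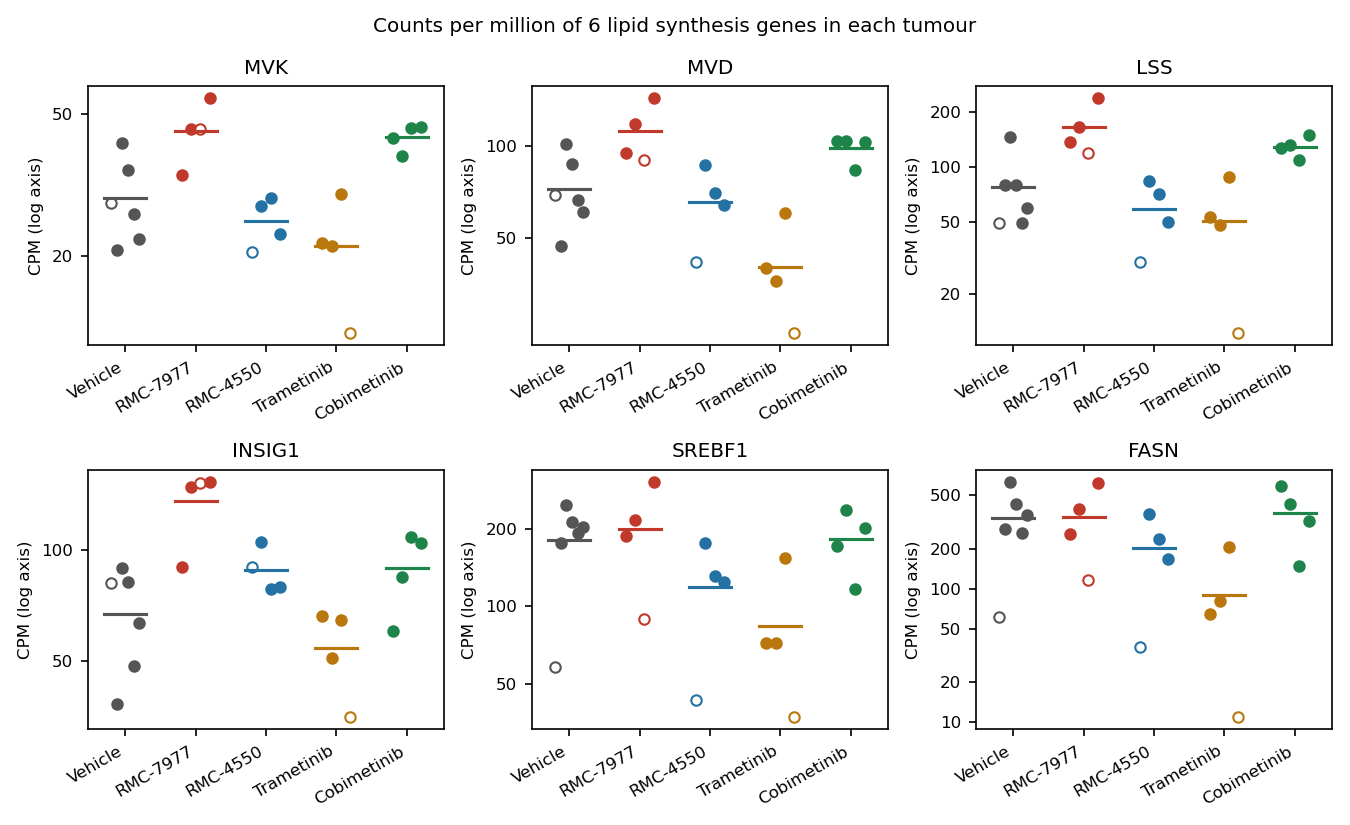
CPM on a log axis (vertical) of 6 genes in every tumour by treatment group, with 1 point per tumour, a bar at the group mean and open points for the 4 libraries that stood apart. The 4 RMC-7977 tumours lie above all Vehicle tumours for INSIG1, and for SREBF1 and FASN the low Vehicle point is replicate 1, an open point.

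The GC content of the transcripts moved with these values. FASN (65.3% GC), TM7SF2 (64.2%), MVD (63.7%), SREBF1 (62.8%) and SCAP (62.3%) are the 5 most GC-rich of the 31 genes, and each of the 5 stood at −0.82 or lower under trametinib. The 11 genes above 55% GC had a median log2 fold change of −0.82 under trametinib, and all genes in that band −0.37. The 11 genes under 45% GC had a median of −0.33, where all genes in that band stood at 0.14. After a correction for GC content the 3 bands of the 31 genes were close to each other, at −0.38 over 55%, −0.36 from 45% to 55% and −0.45 under 45%. With this correction FASN differed by −1.40, SREBF1 by −0.67, MVD by −0.48 and TM7SF2 by −0.39, all 4 smaller in size than without it. Under RMC-7977 the medians of the bands were 0.31, 0.43 and 0.41 from high to low GC without the correction, and 0.37, 0.44 and 0.34 with it, and INSIG1 (46.0% GC) stayed at 1.00 (edgeR adjusted p = 0.0285).

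**Figure D4:**
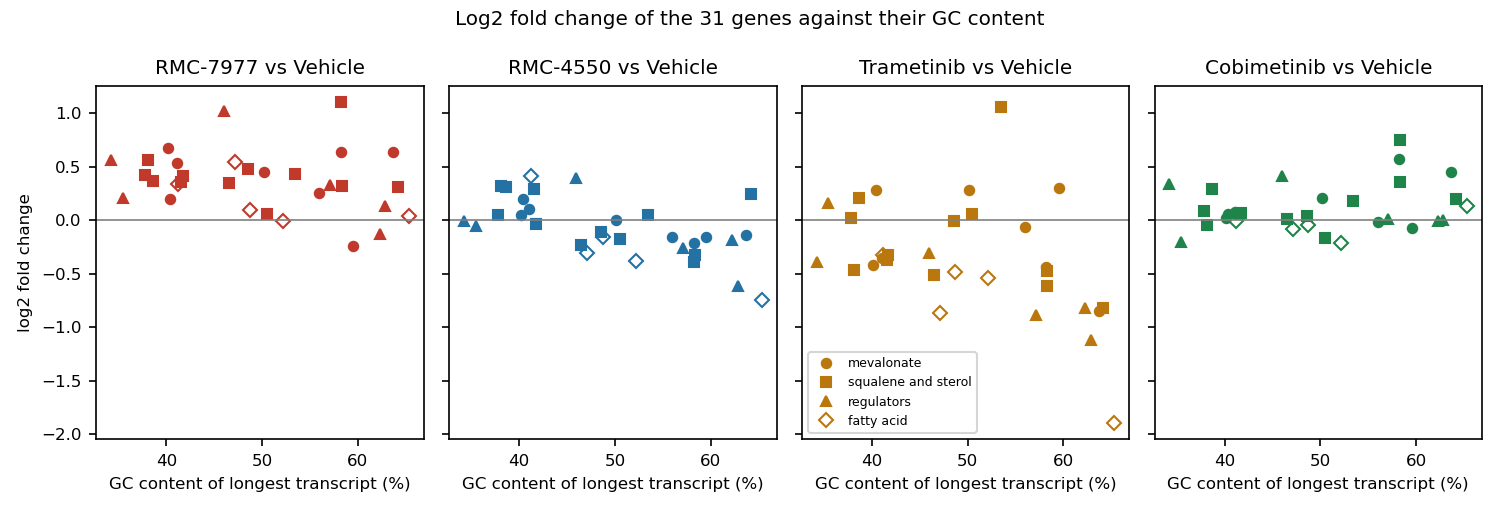
Log2 fold change against Vehicle (vertical axis) of each of the 31 genes by the GC content of its transcript in percent (horizontal axis), with 1 panel per drug and the shape of the point giving the branch. Under trametinib the genes above 55% GC have a median of −0.82 and those under 45% a median of −0.33, and under RMC-7977 the medians are 0.31 and 0.41.

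Cobimetinib, the other MEK inhibitor, was compared with Vehicle in turn. None of the 31 genes passed by edgeR, where 0% of all genes passed, or by DESeq2. The median was 0.06 with 21 positive and 10 negative values (48.8% positive over all genes). At an unadjusted p under 0.05 MVK alone was higher and none lower, beside 0.986% and 2.31% of all genes. MVK measured 42.8, 38.2, 45.7 and 46.0 CPM under cobimetinib, 3 of the 4 above all Vehicle tumours, a difference of 0.57 ± 0.22 (edgeR adjusted p = 1). LSS measured 127, 132, 109 and 150 CPM, a difference of 0.75 ± 0.38 with overlapping groups. MVD measured 104, 104, 83.3 and 103 CPM, with 3 of 4 above all Vehicle tumours and a difference of 0.45 ± 0.24. INSIG1 measured 60.4, 84.9, 109 and 104 CPM, a difference of 0.42 ± 0.24 (interval −0.08 to 0.91). SREBF1 differed by 0.00 ± 0.41 (interval −0.85 to 0.85) and SREBF2 by 0.01 ± 0.37 (interval −0.75 to 0.77).

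The direct comparison of RMC-7977 with trametinib held the most calls. MVD and INSIG1 were higher under RMC-7977, 2 of 31 genes where 0.408% of all genes passed in either direction. The levels given above show no overlap between the groups for either gene, the lowest RMC-7977 tumour being at 90.0 CPM for MVD against a highest trametinib tumour of 60.1 CPM. The summed myeloid markers did not overlap either, at 6.96 to 10.7 CPM under RMC-7977 and 15.2 to 38.7 CPM under trametinib. They also did not overlap between RMC-7977 and cobimetinib (11.2 to 22.4 CPM), a pair without edgeR calls among the 31 genes. The part of these markers in the result was not tested. Against trametinib, MVD was higher under RMC-7977 by 1.48 ± 0.27 (edgeR adjusted p = 0.0273) and INSIG1 by 1.33 ± 0.27 (edgeR adjusted p = 0.0317). The calls did not hold without Trametinib replicate 4 (adjusted p = 0.0535 for MVD and 0.0757 for INSIG1), nor without RMC-7977 replicate 1, 2 or 4, and INSIG1 also lost its call without RMC-7977 replicate 3 (adjusted p = 0.0737).

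Over the 31 genes, 28 had a positive value (51.2% over all genes) and 3 a negative one, with a median of 0.74 (all genes 0.02). At an unadjusted p under 0.05, 16 were higher and 0 lower, against 6.04% and 12.1% of all genes. In 7 of 31 the groups did not overlap, all higher under RMC-7977, as for 3.22% of all genes. MVK (1.07 ± 0.24, edgeR adjusted p = 0.0518), TM7SF2 (1.13 ± 0.27, adjusted p = 0.0613), LSS (1.72 ± 0.43, adjusted p = 0.0771) and SCD (1.41 ± 0.39, adjusted p = 0.0897) came nearest to the threshold. By branch the medians were 0.60 for mevalonate, 0.74 for sterol, 1.09 for the regulators and 0.67 for fatty acid genes. A GC correction left MVD (1.15, adjusted p = 0.0365) and INSIG1 (1.36, adjusted p = 0.0255) past the threshold and added LSS and HSD17B7, 4 of 31 where 0.958% of all genes passed.

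The other pairs of drugs gave no edgeR call among the 31 genes. RMC-7977 against RMC-4550 had 28 positive values (48.4% over all genes) and a median of 0.43, where 0.0906% of all genes passed. At an unadjusted p under 0.05, 5 genes were higher and 0 lower, beside 3.05% and 4.34% of all genes. MVK (0.84 ± 0.24, edgeR adjusted p = 0.243), MVD (0.77 ± 0.27) and LSS (1.498 ± 0.43, edgeR adjusted p = 0.235) did not overlap between the groups, as for 3.79% of all genes. DESeq2 called MVK and LSS in this pair, and 0.971% of all genes. RMC-7977 against cobimetinib had 27 positive values (49% over all genes) and a median of 0.25, where 0.278% passed. INSIG1 was the 1 gene higher at an unadjusted p under 0.05 and 0 were lower (all genes 4.29% and 3.16%), and it differed by 0.61 ± 0.27 (interval 0.06 to 1.16, adjusted p = 0.567). RMC-4550 against trametinib had 23 positive values (53.9% over all genes) and a median of 0.29 (0.17 without Trametinib replicate 4), where 0% passed. There 4 genes were higher and 1 lower at an unadjusted p under 0.05 (all genes 3.91% and 8.42%), with TM7SF2 at 1.07 ± 0.27 (adjusted p = 0.159). DESeq2 called 1 of the 31 and 0.971% of all genes. RMC-4550 against cobimetinib had 22 negative values (52.4% positive over all genes) and a median of −0.13, where 0.0283% passed, with 0 genes higher and 4 lower at an unadjusted p under 0.05 (all genes 4.25% and 1.95%).

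The pair of MEK inhibitors differed in level without passing the test at these doses, which are not matched. Trametinib stood below cobimetinib for 25 of 31 genes (52.7% positive over all genes), with a median of −0.43 (−0.27 without Cobimetinib replicate 3), where 0% of all genes passed. At an unadjusted p under 0.05, 9 of 31 were lower and 1, EBP, higher, beside 6.58% and 10.2% of all genes. Groups did not overlap for 5 genes (MVK, MVD, LSS, TM7SF2 and DHCR7), as for 4.45% of all genes. All 5 lie above 55% GC, a band in which all genes had a median of −0.40. The 11 of the 31 genes in that band had a median of −1.01, and of −0.57 with the GC correction. MVD differed by −1.30 ± 0.27 (interval −1.86 to −0.74, edgeR adjusted p = 0.183) and FASN by −2.03 ± 0.74 (interval −3.56 to −0.50, edgeR adjusted p = 0.207). DESeq2 called MVK, MVD and TM7SF2, 3 of the 31 genes where it called 0.977% of all genes. The 4 comparisons with Vehicle share their control tumours, and the pairs of drugs share their treated tumours, so they are not independent of each other.

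A further 48 genes of lipid metabolism and of SREBP control were followed, of which 47 were tested. None passed by edgeR in any of the 10 comparisons. Against Vehicle the medians were 0.16 for RMC-7977 (31 positive, 16 negative), −0.03 for RMC-4550, −0.15 for trametinib (20 positive, 27 negative) and 0.01 for cobimetinib. Under RMC-7977, 4 of the 47 were higher and 3 lower at an unadjusted p under 0.05, beside 4.87% and 5.47% of all genes, among them ACSS2, PNPLA3 and DHDDS as higher and NR1H3, MYLIP and MID1IP1 as lower. ACSS2, an acetyl-CoA synthetase, is an SREBP target. MYLIP, a ubiquitin ligase, and NR1H3, a liver X receptor, belong to the oxysterol response. The 6 listed genes of that response had a median of −0.46 under RMC-7977 with 4 negative, and of −0.40 under cobimetinib with all 6 negative. The median was −0.11 under RMC-4550 with 5 negative, and −0.05 under trametinib with 3 negative. Over all genes, 48.8% to 49.6% were positive in these comparisons with Vehicle. MYLIP differed by −0.78 ± 0.36 under RMC-7977 (edgeR adjusted p = 0.457). Between RMC-7977 and trametinib ACSS2 (1.18 ± 0.30, edgeR adjusted p = 0.0771) came nearest to the threshold.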

How the data were processed

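Expression was measured in 22 tumours by sequencing of total RNA that kept strand. The authors deposited raw read counts per gene, and the submitters' processing notes name the build hg38 with HISAT2 (2.0.5) and featureCounts (1.5.0-p3), besides fastp, DESeq2 (1.20.0) and edgeR (3.22.5). No source used here gives the host species, removal of host reads, strand setting, handling of multi-mapping reads or annotation release. Reads from overlapping or antisense genes may therefore be mixed.

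The 31 genes and the other lists were chosen with earlier results of these data known. Genes were filtered with edgeR (4.0.16, R 4.3.3, minimum count 10, 5 groups), which kept 99.718% of counts. After TMM scaling, all 22 libraries entered 1 robust quasi-likelihood fit, and 10 comparisons were tested 2-sided with Benjamini-Hochberg adjustment over 17652 genes at 0.05. The biological coefficient of variation was 0.368. Genes given with values per tumour are those called and, per branch and drug against Vehicle, the member with the smallest p; others were named after their values were seen, and some are not reported here. Log2 CPM used a prior count of 2. GC content came from the longest GENCODE 29 transcript, a choice made after seeing the data. The steps were also run on simulated counts for RMC-7977 against Vehicle. That simulation held no outlying library and no GC skew, so it does not cover those features of the data.

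Alternatives were DESeq2 (1.42.0), RLE scaling, other count filters, GC correction, a replicate block, a fit of the compared groups alone, limma (3.58.1) voom with library weights, and leaving out libraries. As a check of pairing, deviations from group means were correlated between same-numbered tumours. Vehicle and RMC-4550 gave 0.170 to 0.711 over 3 numbers, Vehicle and trametinib 0.136 to 0.202, and no other groups had every value over 0.1. What the number marks is unknown. Replicate 1 of Vehicle, RMC-4550 and trametinib shared a negative GC correlation (−0.538, −0.584 and −0.484), and its part in these values was not tested. Total counts per tumour limit the precision only by counting error, which is a lower bound.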

Additional observations from a re-analysis of the deposited data

Results flagged for a closer look

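The levels of the 31 genes, the mean levels of the 4 branches and the summed level of the 31 genes were each checked in the 5 groups, 180 checks in all. In 12 of them a tumour lay far from the rest of its group, in 6 libraries. Chance gives about 1 in 20 for such a check, and checks of genes in the same tumours are not independent. All values here are log2 CPM. Vehicle replicate 1 was far above the other Vehicle tumours for PMVK (6.68) and GGPS1 (5.43) and far below them for SCAP (4.74) and SREBF1 (5.86). RMC-4550 replicate 1 was far below its group for TM7SF2 (3.34) and SCAP (4.69) and far above it for SC5D (5.93). RMC-7977 replicate 3 was far above its group for GGPS1 (5.66), and Trametinib replicate 4 for EBP (8.53, against 6.11 for the next tumour). Those 4 libraries are the ones that stood apart over all genes. INSIG1 in RMC-7977 replicate 1 (6.50) was far below the other 3 tumours of the group, which were at 7.22 or more. Cobimetinib replicate 3 was far below its group for MVD (6.38) and DHCR7 (7.43). The part of RNA quality or GC content in these values was not tested.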

How the results depend on the processing

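The medians over the 31 genes kept their sign against Vehicle for RMC-7977 (0.27 to 0.51 with each tumour left out) and trametinib (−0.53 to −0.21), but not for RMC-4550 (−0.19 to 0.07) or cobimetinib (−0.01 to 0.21). For RMC-7977 and trametinib against Vehicle, the count of calls was less stable than the sign of the median. For RMC-4550 and cobimetinib the count stayed at 0 with each tumour left out. For RMC-7977 against Vehicle the count of 1 became 0 without the count filter, with only the 2 groups compared, with the replicate block and with GC correction plus block, 12 with limma voom weights (16.7% of all genes called), 3 without the 4 libraries (6.38%), and 0 to 1 with each tumour left out. For RMC-7977 against trametinib the count of 2 became 8 with DESeq2 (4.44% of all), 1 without the filter or without 2 libraries (RMC-7977 replicate 3 and Trametinib replicate 4), 4 with GC correction (0.958%), 25 with voom weights (30% of all), 7 without 4 libraries (5.3%), and 0 with 2 groups only, with the replicate block and with both block and GC correction; each tumour left out gave 0 to 9, the highest without Trametinib replicate 3 (7.07% of all).

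Counts of 0 became, with DESeq2, 1 (trametinib against Vehicle, 2.15% of all genes called), 2 (RMC-7977 against RMC-4550, 0.971%), 1 (RMC-4550 against trametinib, 0.971%) and 3 (trametinib against cobimetinib, 0.977%). With voom weights they became, for these 4 in the same order, 16, 4, 11 and 21 (44.6%, 5.31%, 21.1% and 37.4% of all), and also 2 (cobimetinib against Vehicle, 2.27%), 1 (RMC-7977 against cobimetinib, 8.7%) and 2 (RMC-4550 against cobimetinib, 3.51%). Without the 4 libraries they became 6 (trametinib against Vehicle, 15.1%), 1 (RMC-4550 against trametinib, 0.36%) and 3 (trametinib against cobimetinib, 3.02%), and without 2 libraries 1 (RMC-7977 against RMC-4550, 0.745%). With each tumour left out trametinib gave 0 to 5 against Vehicle and 0 to 4 against cobimetinib, the highest without Trametinib replicate 3 (7.84% and 1.72% of all). The causes were not tested. DESeq2 gave a p for 30 of the 31 genes. With voom weights EBP reversed for RMC-7977 against trametinib (0.56) and trametinib against cobimetinib (−0.34), and PMVK for trametinib against Vehicle (−0.29) and cobimetinib (−0.32). The voom weight of Trametinib replicate 2 was 8.82, against 0.85, 0.79 and 0.05 for replicates 1, 3 and 4. All voom values that involve trametinib, the 25 calls against RMC-7977 included, therefore rest mostly on that tumour.

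A block on replicate number leaves Vehicle replicates 5, 6 and 7 without weight against the drugs, since no drug tumour has these numbers. Blocked comparisons with Vehicle therefore rest on Vehicle replicates 1, 2 and 3, of which replicate 1 stood apart. With the replicate number as a block INSIG1 stood at 1.01 (edgeR adjusted p = 0.688) under RMC-7977. No pairing of RMC-7977 and Vehicle is shown by the labels or by the correlations (−0.23 to 0.03). In RMC-4550 and trametinib against Vehicle the numbers may pair, but replicate 1 of each group also shares a negative GC correlation. Both comparisons had 0 calls among the 31 genes with and without the block. Over all genes RMC-4550 went from 5 calls to 0, and the median of the 31 from −0.11 to −0.18.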
